A study of Homo sapiens with 6 samples.

Results

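The tripartite motif (TRIM) genes examined here were all rows of the deposited table whose symbol is TRIM followed by digits only, which gave 52 of 23002 genes. They were measured in U251, an established human glioblastoma cell line. The control cells carried a lentivirus with a non-targeting short hairpin RNA (sh-NC, 3 samples), and the knockdown cells carried a lentivirus with a hairpin against TRAF2 (sh-TRAF2, 3 samples). Both were stable lines, no other agent is named in the labels, and the labels do not say which of the TRAF2 hairpins was sequenced. The samples of a group are described as biological replicates, but nothing says that each came from its own transduction, so the p-values measure only the spread between these samples, which may be technical. The comparison asks how the mRNA of this family of ubiquitin ligases differed after TRAF2 knockdown, with TRIM65 and TRIM21, which the study names as ligases acting on fatty acid synthase (FASN), set against the rest.

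TRIM proteins carry at their N-terminus a RING domain, which transfers ubiquitin from an E2 enzyme to a substrate, then B-box zinc fingers and a coiled coil. The C-terminus sets the subfamily and the partner: a PRY-SPRY domain in the largest subfamily, a COS box that binds microtubules, a PHD finger and bromodomain that read histones, or NHL repeats. Many members act in innate immunity, where some are induced by interferon and attach ubiquitin chains to viral sensors and their adaptors. TRAF2 is itself a RING protein of the tumor necrosis factor receptor pathway but does not belong to this family. In the annotation deposited with the values, 44 of the 52 genes carried the term ubiquitin protein ligase activity and 25 carried innate immune response.

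Between 33999558 and 36823562 reads per sample lay on genes, as read back from the FPKM values (fragments per kilobase of gene, scaled to the depth of the library). The targeted gene was checked first. TRAF2 measured 15.1, 18.4 and 15.3 FPKM in sh-NC replicates 1, 2 and 3 and 3.26, 3.22 and 3.33 FPKM in sh-TRAF2, a change of -2.27 on the log2 scale (standard error, SE, 0.08, adjusted p = 1.16e-06 from limma). Log2 values correlated across genes at 0.993 to 0.994 within sh-NC, 0.995 within sh-TRAF2 and 0.979 to 0.985 between the groups, and no pair of replicates agreed within counting noise. Of the glioma markers, VIM, CD44 and SOX2 were abundant, GFAP was low at 0.467 FPKM in sh-NC and 1.18 FPKM in sh-TRAF2, and S100B was listed at 0 in 5 samples. Of the 5 of these markers that were tested 3 were higher after knockdown, against 23.7% of all tested genes. On the log2 scale NES rose by 1.12 (5.35 to 11.7 FPKM, adjusted p = 1.91e-05), GFAP by 1.11 (adjusted p = 0.0382) and VIM by 0.35 (adjusted p = 6.87e-05). The GFAP groups overlapped, with sh-TRAF2 replicate 1 at 0.561 FPKM and sh-NC replicate 3 at 0.666 FPKM. The part of these markers in the results was not tested. KDR, an endothelial marker, measured 3.24 to 4.25 FPKM and was higher after knockdown (log2 fold change 0.22, adjusted p = 0.0495). CD68, which many cell types express, measured 14.9 to 17.6 FPKM. The other immune and endothelial markers CD14, PTPRC, CSF1R, PECAM1, VWF and CDH5 stayed under 0.63 FPKM in every sample.

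Of the 52 TRIM genes, 38 had a mean of at least 0.5 FPKM over the 6 samples and were tested, and 14 lay below. With limma on log2(FPKM + 0.1), a scale that understates the change of low genes, 19 members were called, 10 higher and 9 lower after TRAF2 knockdown, at a Benjamini-Hochberg adjusted p under 0.05 over all 11870 tested genes. Among all tested genes 44.6% were called, 23.7% higher and 20.9% lower, against 26.3% and 23.7% of the tested members in the same directions, so the family was called about as often as genes in general. The median log2 fold change of the tested members was 0.08, beside 0.02 over all tested genes. In 11 members every sh-TRAF2 sample lay above every sh-NC sample and in 10 every one lay below, where the same held for 29.0% and 26.5% of all tested genes, or 55.5% in either direction. Most of these differences were small, since 12 of the 19 called members changed by less than 0.5 on the log2 scale. At the fold change that the study requires, above 1 on the log2 scale in either direction, TRIM65 alone was called, and it was lower (0.733% of all tested genes were called lower at that fold and 0.986% higher). As these are bulk cultures, a lower value can come from fewer expressing cells or from less RNA per cell, and these cannot be told apart.

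**Figure D1:**
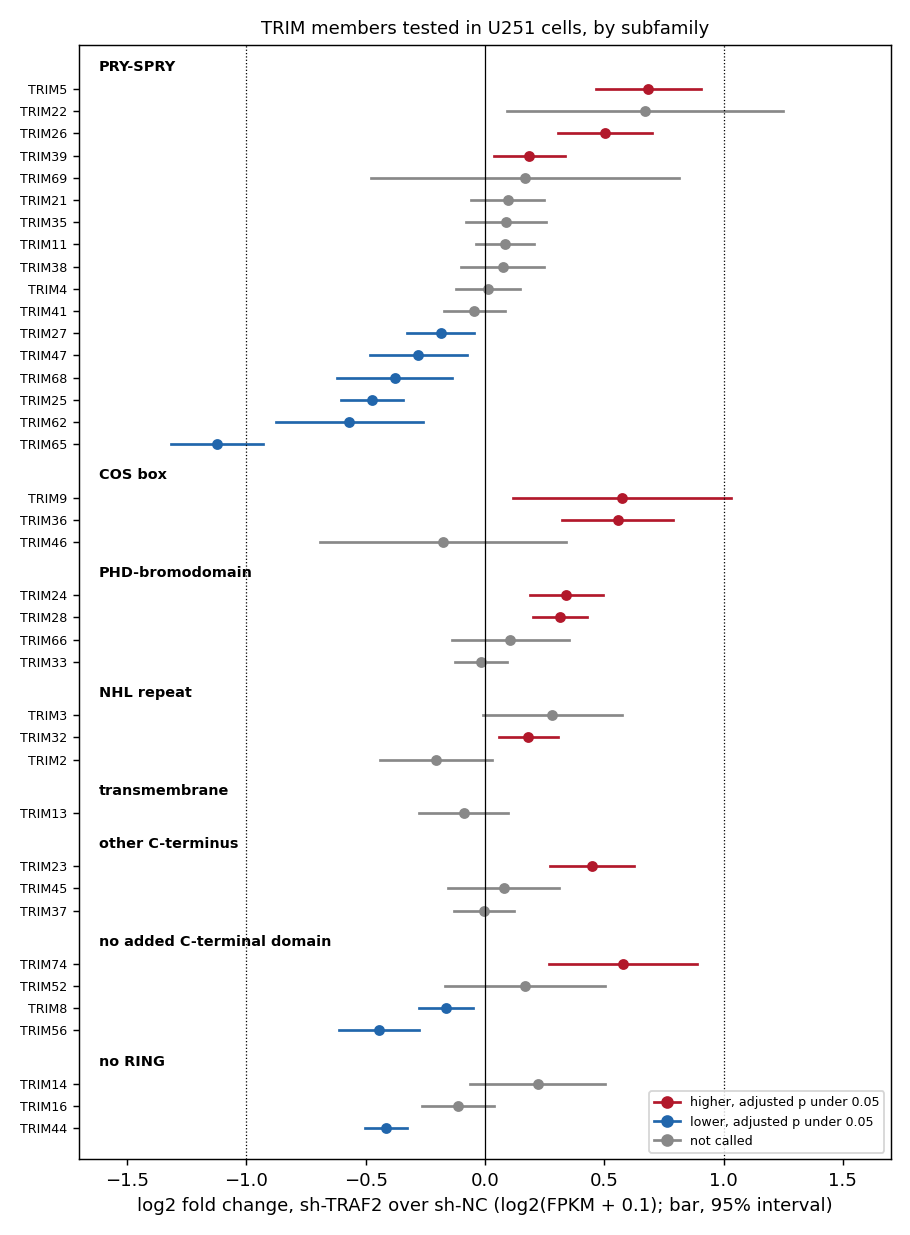
Log2 fold change (sh-TRAF2 over sh-NC, horizontal axis) of the 38 tested TRIM genes, ordered by subfamily, with 95% intervals from limma as bars, not adjusted for the number of genes. Red and blue mark genes with an adjusted p under 0.05, the dotted lines mark log2 fold changes of 1 in either direction, and TRIM65 at -1.12 is the only point outside them.

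TRIM65, a PRY-SPRY ligase known for ubiquitinating the RNA sensor MDA5 and here named for FASN, had the lowest log2 fold change of the tested members. It measured 6.32, 7.15 and 6.64 FPKM in sh-NC replicates 1, 2 and 3 and 2.76, 2.99 and 3.33 FPKM in sh-TRAF2 replicates 1, 2 and 3. The groups were far apart, and the highest knockdown sample lay below the lowest control. Behind these values stood 892, 1014 and 978 reads in sh-NC and 380, 407 and 463 reads in sh-TRAF2, so counting error was small beside the difference. The mean fell from 6.71 ± 0.419 to 3.03 ± 0.289 FPKM (SD, n = 3 and 3), which is 54.9% lower. On the log2 scale the difference was -1.12 (SE 0.08, 95% interval -1.32 to -0.93, adjusted p = 3.46e-05 from limma), rank 59 from the lowest among the 11870 tested genes. The two-sided exact permutation test gave p = 0.1, the smallest value that 3 samples against 3 allow. The member nearest to it was TRIM62 at -0.57. When 1 instead of 0.1 was added to the FPKM, TRIM65 stood at -0.94 on the log2 scale, with an adjusted p of 3.14e-05, and it then lay inside the fold change of the study.

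TRIM21, a PRY-SPRY ligase that doubles as a cytosolic receptor for antibodies and the other member named for FASN, was not called. Its samples measured 12.5, 11.4 and 13.0 FPKM in sh-NC and 12.3, 14.0 and 13.1 FPKM in sh-TRAF2, and the groups overlapped. The log2 fold change was 0.09 (SE 0.07, 95% interval -0.06 to 0.25, adjusted p = 0.279 from limma), on 792 to 934 reads per sample. The interval leaves room for a fall of 0.06 or a rise of 0.25 on the log2 scale and lies above the whole interval of TRIM65. The exact permutation test gave p = 0.4.

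The levels of TRIM65 and TRIM21 stood further apart in the knockdown samples. In sh-NC replicates 1, 2 and 3 the FPKM of TRIM21 was 1.97, 1.60 and 1.96 times that of TRIM65, and in sh-TRAF2 it was 4.47, 4.69 and 3.93 times. The log2 ratio of TRIM65 to TRIM21 went from -0.87 ± 0.17 to -2.08 ± 0.13 (SD, n = 3 and 3), a difference of -1.22. All knockdown samples lay below all controls (exact permutation p = 0.1, two-sided, which 3 against 3 cannot go below). The ratio is built from the same TRIM65 and TRIM21 values as given above, so it is not separate support for the fall of TRIM65. The difference stayed between -1.29 and -1.03 under all 15 alternative settings.

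**Figure D2:**
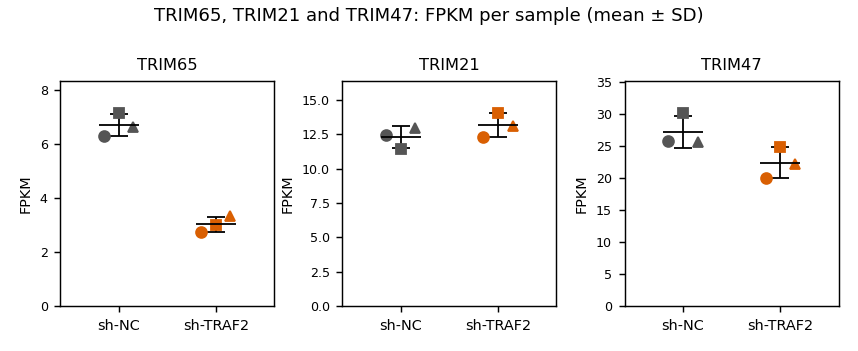
FPKM (vertical axes, from 0) of TRIM65, TRIM21 and TRIM47 in the sh-NC and sh-TRAF2 samples, with circles, squares and triangles for replicates 1, 2 and 3 and horizontal bars for the mean with its SD. TRIM65 fell from 6.71 to 3.03 FPKM without overlap, TRIM21 overlapped between the groups, and TRIM47 fell by 0.28 on the log2 scale.

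The target of the named ligases and the deubiquitinase USP14, which the study also names for FASN, differed far less than TRIM65. FASN, the enzyme of de novo fatty acid synthesis, measured 14.7, 17.3 and 14.1 FPKM in sh-NC and 12.3, 13.1 and 12.4 FPKM in sh-TRAF2. The knockdown values all lay below the controls, with a change of -0.28 on the log2 scale (SE 0.08, adjusted p = 0.0176). The study itself reports no significant change of FASN mRNA by RT-qPCR after TRAF2 knockdown in U251 and A172 cells. The reason for this difference was not tested. USP14 fell by 0.23 on the log2 scale (adjusted p = 8.68e-04), from 49.9 ± 0.579 to 42.5 ± 0.396 FPKM (SD, n = 3 and 3).

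The genes beside TRIM65 were also read, since neighbours on a chromosome can share reads or change together. In the GENCODE 29 annotation TRIM65 overlaps no other gene of the table. Its neighbours on either side, TRIM47 and MRPL38, lie within 1760 and 1640 bases of it, on the same strand. TRIM47, a PRY-SPRY ligase, measured 25.8, 30.1 and 25.6 FPKM in sh-NC and 20.05, 24.9 and 22.2 FPKM in sh-TRAF2 (log2 fold change -0.28, adjusted p = 0.0328). Its groups were close, with the highest knockdown sample just under the lowest control. Without sh-NC replicate 2, sh-TRAF2 replicate 1 or sh-TRAF2 replicate 3 the adjusted p was 0.0890, 0.0997 or 0.0777. The TRIM47 call was lost in 5 of 15 alternative settings, including no filter and no trend. MRPL38, a mitochondrial ribosomal protein, was higher by 0.30 on the log2 scale (adjusted p = 0.00253). Further out on the side of TRIM47, WBP2 and UNK stood at -0.33 and -0.31, both lower (adjusted p = 7.95e-04 and 0.0311), and on the side of MRPL38, FBF1 was not called, at -0.01.

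Among the other PRY-SPRY members, of which 15 were tested, 3 were higher and 5 lower, against 23.7% and 20.9% of all tested genes. TRIM62 had the lowest log2 fold change of the family after TRIM65. This ligase, linked to the polarity of epithelial cells, measured 1.25, 1.13 and 1.15 FPKM in sh-NC and 0.843, 0.667 and 0.774 FPKM in sh-TRAF2. The difference was -0.57 on the log2 scale (SE 0.13, adjusted p = 0.00944) on 177 to 344 reads per sample, with no overlap. TRIM68, a cofactor of the androgen receptor, fell by 0.38 (adjusted p = 0.0194), and without sh-NC replicate 1 or 3 its adjusted p was 0.0626 or 0.0538. TRIM27, also called RET finger protein, fell by 0.19 (adjusted p = 0.0365). TRIM39 rose by 0.19 with an adjusted p of 0.0464, which went above 0.05 without any 1 of the 6 samples (0.0551 to 0.153). TRIM39 overlaps HCG18 on the other strand and the readthrough gene TRIM39-RPP21 on its own, so some of its reads are uncertain. TRIM4, TRIM11, TRIM35 and TRIM41 were not called, with log2 fold changes of 0.01, 0.08, 0.09 and -0.04.

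TRIM25 was the most abundant member of the control cells and fell. It is a ligase known for activating the RNA sensor RIG-I, and it measured 125, 115 and 128 FPKM in sh-NC and 82.5, 88.9 and 93.5 FPKM in sh-TRAF2. The groups did not overlap, and the log2 fold change was -0.47 (SE 0.06, adjusted p = 3.21e-04). TRIM28, the corepressor that silences genes bound by KRAB zinc finger proteins, moved the other way, from 71.1, 76.8 and 66.9 FPKM to 89.3, 89.6 and 88.0 FPKM (log2 fold change 0.31, SE 0.05, adjusted p = 0.00139). In the knockdown samples the ranges of TRIM25 and TRIM28 overlapped, while in sh-NC every TRIM25 value exceeded every TRIM28 value. TRIM25 made up 21.8% of the summed FPKM of the 52 members in sh-NC and 16.6% in sh-TRAF2, and TRIM28 made up 12.7% and 16.7%. The next most abundant members were TRIM16, TRIM27 and TRIM8. TRIM25 overlaps C17orf67 on its own strand and DGKE on the other, and since the use of strand in counting is not given in the sources used here, some of its reads are uncertain.

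**Figure D3:**
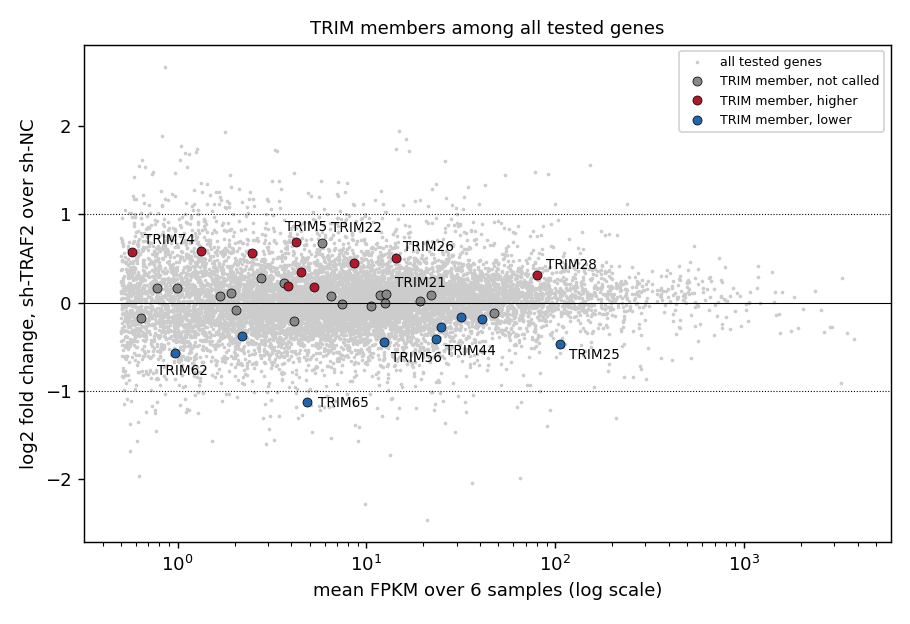
Log2 fold change (sh-TRAF2 over sh-NC, vertical axis) against the mean FPKM over 6 samples (horizontal log axis) for the 11870 tested genes in grey and the 38 tested TRIM members in colour. TRIM65 lies below the dotted line at -1, and the most abundant members, TRIM25 and TRIM28, changed by -0.47 and 0.31.

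A list of 9 members known to be induced by interferon was examined as a group, and 8 of them were tested. Of these 1 was higher, TRIM5, 2 were lower, TRIM25 and TRIM56, and 5 were not called, with a median log2 fold change of 0.13. Of 9 other interferon response genes 7 were higher in sh-TRAF2 and 2 not called, against 23.7% higher among all tested genes. Their log2 fold changes ran from -0.12 to 1.16. Among those higher were ISG15, a ubiquitin-like modifier, by 1.11 (adjusted p = 1.15e-04) and IFI6 by 1.12 (adjusted p = 0.00514) on the log2 scale. The summed FPKM of these 9 genes ran from 443 to 575 in sh-NC and from 698 to 909 in sh-TRAF2. The calls among the 8 TRIM genes stand beside 23.7% higher and 20.9% lower among all tested genes, and a difference between the 2 lists was not tested.

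The promoter windows of all members with an entry were searched for the core of an interferon-stimulated response element (ISRE), the DNA element bound by the interferon-activated ISGF3 complex. The core was searched as GAAANNGAAA on both strands in RefSeq windows (GRCh38.p14) from 250 bases before to 50 bases after each gene start, and none of its matches overlapped a match to the kappaB core GGGANNNNCC. The kappaB core was present in 30.4% of promoters of tested genes and 18.6% of those of tested members, TRIM5, TRIM14 and TRIM26 among them. The ISRE core was in 3.57% of all 35116 promoters, in 3.10% of those of tested genes and in 18.6% of the 43 promoters of tested members. These matches lay in 8 of the 28 tested members with an entry. These 8 were TRIM2, TRIM5, TRIM14, TRIM16, TRIM21, TRIM26, TRIM44 and TRIM69. After knockdown 2 of them were higher, 1 lower and 5 not called, against 23.7% higher and 20.9% lower among all tested genes. TRIM65 and the interferon-inducible TRIM25, TRIM38 and TRIM56 have an entry with no match, and TRIM22 has no entry. Among the matches not shown are those of the interferon-inducible TRIM69, which was not called, and of TRIM34, which was not tested. The matches of 5 members are shown, those of the interferon-inducible TRIM5, TRIM14 and TRIM21 and of the called TRIM26 and TRIM44. The core is in capitals, 5′ to 3′ on the strand of the gene, where TTTC marks a core on the other strand.
TRIM21, chr11:4393668-4393693, minus strand: tctgagcgGAAACTGAAAGTGAAAta
TRIM5, chr11:5685084-5685109, minus strand: agtttatcTTTCACTTTCctgccctg
TRIM26, chr6:30213583-30213608, minus strand: ccgcctgaTTTCAGTTTCCATTTCgc
TRIM14, chr9:98119231-98119256, minus strand: ggccgaggTTTCGGTTTCccttggga
TRIM44, chr11:35662732-35662757, plus strand: ctgacgggGAAAGGGAAAgtggaacc
TRIM21 and TRIM26 each hold a pair of overlapping cores, and TRIM21 was not called while TRIM26 rose. A match describes these letters only and is not a measured binding site.

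TRIM5, which blocks incoming retroviral capsids, had the highest log2 fold change of the family. It measured 3.49, 2.74 and 3.42 FPKM in sh-NC and 5.36, 5.25 and 5.002 FPKM in sh-TRAF2, well apart, with a log2 fold change of 0.69 (SE 0.10, adjusted p = 7.23e-04). TRIM22, a close relative encoded across from it, measured 4.97, 3.18 and 5.03 FPKM in sh-NC and 4.67, 7.66 and 9.23 FPKM in sh-TRAF2. Sh-TRAF2 replicate 1 lay within the control range, and the log2 fold change of 0.67 did not pass (SE 0.25, adjusted p = 0.0599). Without that sample it was 0.95 (adjusted p = 0.00946). TRIM22 also passed with limma-voom on the recovered reads of all 6 samples (adjusted p = 0.0278). Across the 15 other settings its adjusted p ran from 0.00946 to 0.180. Sh-NC replicate 2 was lowest and sh-TRAF2 replicate 3 highest for TRIM22, as they were for ISG15, at 132 and 358 FPKM, and the part of that in the result was not tested. TRIM5 and TRIM22 overlap on opposite strands, so reads in the shared stretch cannot be assigned with certainty.

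TRIM56, a ligase of the DNA sensing pathway, measured 14.2, 14.2 and 14.3 FPKM in sh-NC and 9.24, 11.3 and 10.9 FPKM in sh-TRAF2 (log2 fold change -0.45, SE 0.07, adjusted p = 0.00165). The control values were almost level, and all knockdown values lay below them. TRIM14, an adaptor of antiviral signaling that lacks a RING, had a log2 fold change of 0.22 with overlapping groups (adjusted p = 0.181). TRIM38 stood at 0.07 (adjusted p = 0.456). TRIM69 rested on 30 to 75 reads per sample, and its sh-NC replicate 3, at 1.16 FPKM, was higher than the top knockdown sample at 0.970 FPKM (log2 fold change 0.17, adjusted p = 0.65). TRIM34 had at most 1 read per sample. TRIM26, an antiviral regulator encoded in the major histocompatibility region and not on the list, rose from 13.3, 10.4 and 12.0 FPKM to 15.9, 17.7 and 16.9 FPKM (log2 fold change 0.50, SE 0.09, adjusted p = 0.0020).

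**Figure D4:**
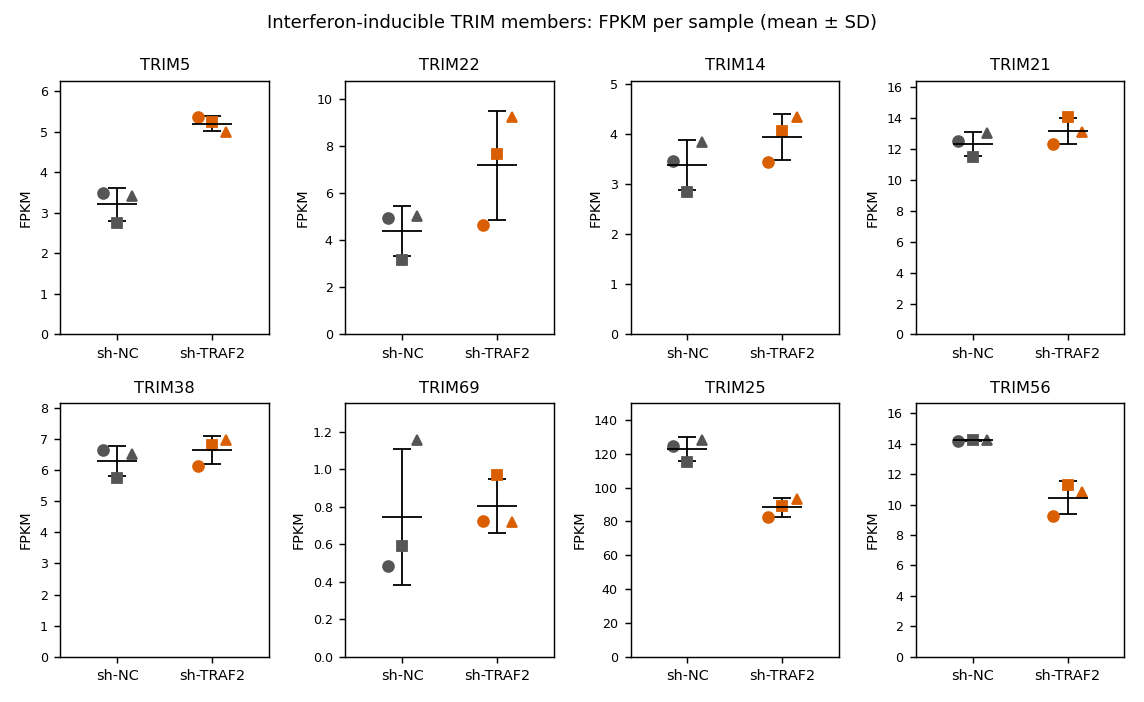
FPKM (vertical axes, from 0) of the 8 tested interferon-inducible TRIM genes in sh-NC and sh-TRAF2, with circles, squares and triangles for replicates 1, 2 and 3 and bars for the mean with its SD. TRIM5 separated upward, TRIM25 and TRIM56 separated downward, and the groups of the other 5 genes overlapped.

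The nuclear cofactors TRIM24, TRIM28 and TRIM33 share a PHD finger and a bromodomain, and 2 of the 3 were higher. Among all tested genes 23.7% were higher. TRIM24, a cofactor of nuclear receptors, went from 3.97, 4.03 and 3.86 FPKM to 5.42, 4.87 and 4.82 FPKM (log2 fold change 0.34, SE 0.07, adjusted p = 0.00404). TRIM33, which ubiquitinates SMAD4, had a log2 fold change of -0.02 with a 95% interval of -0.13 to 0.09 (adjusted p = 0.798). The relative without a RING, TRIM66, was not called at 0.11 (adjusted p = 0.448). Of 12 tested partners of TRIM28 in silencing, 2 were higher and 3 lower (against 23.7% and 20.9% of all tested genes). These included CHD3, a chromatin remodeler, at 0.55 (adjusted p = 4.34e-05) and CBX1 at 0.14 (adjusted p = 0.0111), while CBX5, another heterochromatin protein, was at -0.48 (adjusted p = 3.48e-04). SETDB1, the histone methyltransferase recruited by TRIM28, had a log2 fold change of -0.01.

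Of 6 members known to act on the tumor necrosis factor and NF-kappaB pathways, 2 were higher, 2 lower and 2 not called. All tested genes stood at 23.7% higher and 20.9% lower. TRIM23, which carries its own GTPase domain and ubiquitinates NEMO, rose from 6.49, 7.75 and 7.53 FPKM to 9.63, 10.5 and 9.59 FPKM (log2 fold change 0.45, SE 0.08, adjusted p = 0.00201), with no overlap. It overlaps TRAPPC13 and SHLD3 on the other strand. TRIM9, a brain-enriched member that restrains NF-kappaB, rose by 0.58 (adjusted p = 0.0454) at a level of 0.352 to 0.801 FPKM. That call was lost in 8 of 14 alternative settings, among them leaving out sh-NC replicate 1 or 2 or sh-TRAF2 replicate 1 or 3, where the adjusted p lay between 0.0791 and 0.147. TRIM8, which attaches chains to the kinase TAK1, fell by 0.16 (adjusted p = 0.0271), and TRIM27 fell as given above. The TRIM8 call was lost in 6 of 15 alternative settings and the TRIM27 call in 5, including no filter and no trend. For TRIM8 they also included leaving out sh-NC replicate 1 or 2 or sh-TRAF2 replicate 1 or 2, with adjusted p of 0.0614 to 0.0874. For TRIM27 they included leaving out sh-NC replicate 2 or sh-TRAF2 replicate 1 or 3, with 0.0909 to 0.112. TRIM13, anchored in the endoplasmic reticulum, and TRIM38, which removes TAB2 and TAB3, were not called.

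Of the microtubule-binding COS box members, 3 were tested and 2 were higher (against 23.7% of all tested genes), TRIM9 and TRIM36. TRIM36 went from 1.95, 2.07 and 1.91 FPKM to 3.41, 2.78 and 2.72 FPKM (log2 fold change 0.56, SE 0.10, adjusted p = 0.00281), and all knockdown samples lay above the controls. TRIM46, which organizes microtubules in axons, was not called at -0.18 with a wide 95% interval of -0.69 to 0.34. Among the NHL repeat members, TRIM32, the gene of a limb-girdle muscular dystrophy, rose by 0.18 (adjusted p = 0.0251). TRIM32 overlaps ASTN2 on the other strand, so some of its reads are uncertain. The TRIM32 call was lost when any sample but sh-NC replicate 2 was left out (adjusted p 0.0509 to 0.0826). TRIM2 and TRIM3, known from neurons, were not called at -0.21 and 0.28, and TRIM3 passed without sh-NC replicate 2 (adjusted p = 0.0362).

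Of the members with no RING, TRIM44 was the clearest. It carries a zinc finger of the ubiquitin protease type and measured 26.1, 27.1 and 26.9 FPKM in sh-NC and 20.2, 20.05 and 19.8 FPKM in sh-TRAF2. Replicates differed little, and the log2 fold change of -0.41 had a SE of 0.04 (adjusted p = 9.94e-05). TRIM16, which takes part in autophagy of damaged lysosomes, was abundant at 45.6 to 53.7 FPKM in sh-NC and was not called at -0.11. TRIM74, a short member from the Williams syndrome region, rose from 1.20, 0.938 and 1.014 FPKM to 1.42, 1.82 and 1.62 FPKM (log2 fold change 0.58, SE 0.14, adjusted p = 0.00904). TRIM73 is a near copy of it with 2 to 13 reads per sample, so how reads were divided between the 2 genes is uncertain. TRIM37, which limits the number of centrioles, TRIM45 and TRIM52 were not called, at -0.00, 0.08 and 0.17.

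**Figure D5:**
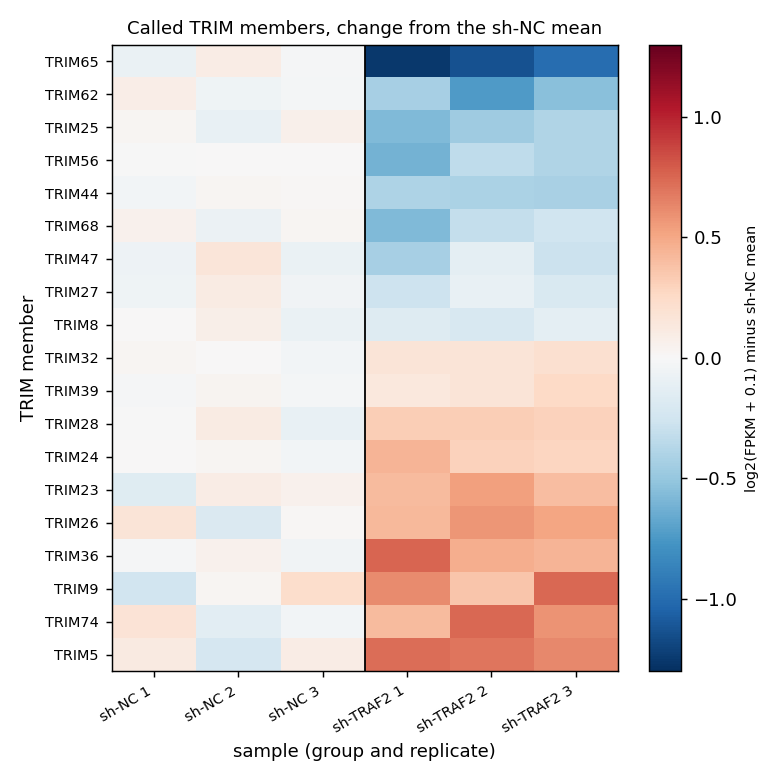
Difference of log2(FPKM + 0.1) from the sh-NC mean (colour scale, blue lower and red higher) for the 19 called TRIM genes (rows, by log2 fold change) in each of the 6 samples (columns). The sh-NC columns stay pale, TRIM65 is the darkest blue row, and TRIM5 is at the other end with a log2 fold change of 0.69.

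The hairpin targets given in the methods of the study are shown so that their matches to TRIM transcripts can be read. In earlier results from these data, transcripts holding bases 10 to 16 of the sh-TRAF2#1 target, in capitals here, were lower after knockdown, so their presence in TRIM genes is given as a description only.
sh-TRAF2#1: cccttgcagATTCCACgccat
sh-TRAF2#2: ctggaccaagacaagattgaa
These 7 bases lay in the longest GENCODE 29 3′UTR of 3 of the 38 tested members (7.89%), against 10.7% of 10611 tested genes with one. Over those 10611 genes the median log2 fold change was -0.11 with the match and 0.02 without it. The match was found in these same data, so the medians are no separate check, and 3′UTR length was not taken into account. The 3 members were TRIM25 and TRIM44, both lower, and TRIM24, which was higher. Their sites are printed with the matching bases in capitals.
TRIM25: gtgccctaATTCCACgaagaggg
TRIM44: ttcctgaaATTCCACattcatat
TRIM24: ctatgttaATTCCACttgtaaag
TRIM65 held no such match in the 3′UTR or coding sequence of its longest record. Its longest run shared with sh-TRAF2#1 was 8 bases and with sh-TRAF2#2 7 bases, lengths that many members reached.

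TRIM ligases work with E2 enzymes, of which 12 were listed and 11 tested. Of these 2 were higher and 3 lower, beside 23.7% and 20.9% of all tested genes. UBE2E1 fell by 0.41 (adjusted p = 1.55e-04) and UBE2D4 fell by 0.57 (adjusted p = 2.84e-04), while UBE2E2 rose by 0.44 (adjusted p = 6.25e-04). UBE2N, UBE2V2 and UBE2W, which build chains with TRIM21, had log2 fold changes of 0.06, -0.01 and 0.06 and were not called. Of 14 tested partners and substrates in innate signaling, 3 were higher and 7 lower. All tested genes stood at 23.7% and 20.9%, and a difference from these shares was not tested. TAB3, an adaptor of the TAK1 kinase, fell by 0.73 (adjusted p = 8.27e-05), the mitochondrial adaptor MAVS by 0.47 (adjusted p = 2.34e-04) and TAK1 itself, MAP3K7, by 0.34 (adjusted p = 6.29e-04). The sensors that TRIM25 and TRIM65 act on were named after their values were seen. DDX58, which encodes RIG-I, rose by 0.69 (adjusted p = 0.00193), and IFIH1, which encodes MDA5, rose by 0.82 (adjusted p = 0.00178). Their direction was that of 7 of the 9 interferon response genes given above, and how it relates to the TRIM ligases was not tested. TNRC6A, a silencing protein known as a TRIM65 substrate and also named after its values were seen, fell by 0.33 (adjusted p = 0.0014).

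Family members with other symbols gave 3 further tested genes. MID1, a COS box ligase, fell by 0.19 (adjusted p = 0.0282). MID2, its close relative, and PML, the organizer of nuclear bodies, were not called at 0.11 and 0.05. Over the members annotated to innate immune response, 19 were tested. Of these 5 were higher and 6 lower, against 23.7% and 20.9% of all tested genes. The median log2 fold change of the 19 was 0.08, the same as for all tested members.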

How the data were processed

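RNA from 3 sh-NC and 3 sh-TRAF2 samples was sequenced and processed by OE Biotech. The values the authors deposited are FPKM, 1 column for each of the 6 samples, with gene annotation. The submitters' processing notes name HISAT2, HTSeq, R 3.2.0 and DESeq2; the genome build, annotation and use of strand are not given in the sources used here. Column sums ran from 349408 to 353563, so the values were not scaled to a common sum.

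Genes with a mean FPKM under 0.5 were left out, and log2(FPKM + 0.1) was compared with limma 3.58.1 in R 4.3.3 (lmFit, eBayes with a trend, two-sided), adjusting over 11870 genes. Adjusted p-values in the text are from this fit, 95% intervals are unadjusted, and single values used exact permutation tests over 20 assignments. Whole reads were recovered as the smallest whole numbers in the ratio of a gene's values (tolerance 1e-06), and for 2643 genes with reads in 1 sample they were set to 1. The fit and the recovery of reads were tested on simulated data.

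The members and lists were chosen with earlier results of these data known. Named are all tested members, listed members below the filter, and in every further list its top 3 genes by adjusted p, of which 1 is not reported here; others are marked, except that NES, GFAP, VIM and the other markers, MRPL38, WBP2, UNK, FBF1, TRIM73, SETDB1, UBE2N, UBE2V2 and UBE2W were also named outside this rule. The alternatives were to add 1 or 0.01 before taking logs, to test all genes or those averaging 1 FPKM or more, TPM rescaling, quantile normalization, a replicate block, no trend, limma-voom on recovered reads, and each sample left out.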

Additional observations from a re-analysis of the deposited data

How the results depend on the processing

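Over 15 alternatives, TRAF2, TRIM65 and TRIM21 kept both their direction and their side of 0.05, and the ratio of TRIM65 to TRIM21 kept its direction. With a pseudocount of 1 limma called 0 members past the fold change of the study, because the larger pseudocount pulled TRIM65 to -0.94, while its unadjusted p stayed under 0.05 and limma-voom on recovered reads called 1. With no filter 5 members were lower, where by construction more genes enter the fit and its adjustment. The lower calls lost there were those of TRIM8, TRIM27, TRIM47 and TRIM68. With no trend 6 members were lower, as TRIM8, TRIM27 and TRIM47 lost their calls. Across the fits without 1 sample, 7 to 9 members were higher, 6 to 8 lower and 1 past that fold, with TRIM65 between -1.19 and -1.06, TRIM21 between 0.04 and 0.14, their ratio between -1.29 and -1.12 and TRAF2 between -2.33 and -2.18. Without sh-NC replicate 2, 9 were higher and 6 lower, without sh-TRAF2 replicate 1, 8 and 6, and without sh-TRAF2 replicate 3, 7 and 7. Limma-voom called 10 higher and 9 lower of 40 tested members. It shared 9 and 9 of these with the main fit, lost TRIM39 and gained TRIM22.

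Under these alternatives direction turned in 5 members, none of which was called. TRIM4 was -0.000161 after TPM rescaling and -0.042 to 0.068 without 1 sample, TRIM37 -0.049 to 0.028, TRIM41 -0.078 to 0.0026, TRIM46 -0.34 to 0.0063 and TRIM69 -0.057 to 0.50; the cause was not tested. Of the comparisons of other members with an alternative, 480 held, 42 were weaker, 4 stronger and 9 turned.

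Same-numbered samples did not deviate together across genes (r from -0.08 to 0.07, against -0.14 to 0.07 for different numbers). With 3 samples per group this cannot show whether same-numbered samples were handled together. Of the sh-NC samples, replicates 2 and 3 correlated best with their own number and replicate 1 with sh-TRAF2 replicate 3. With the replicate block 8 members were higher and 10 lower, as TRIM2 gained a call (adjusted p = 0.0327) and TRIM39 and TRIM9 lost theirs (0.0627 and 0.0562). Members under about 10 reads per sample have imprecise folds.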

Other observations

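Of the 14 members below the filter, 10 had under 10 reads in every sample and the other 4, TRIM6, TRIM7, TRIM67 and TRIM73, reached 10 or more in some sample. TRIM6 measured 0.338 to 0.472 FPKM in sh-NC and 0.400 to 0.633 FPKM in sh-TRAF2, and TRIM7 measured 0.417 to 0.466 FPKM and 0.243 to 0.511 FPKM. TRIM67, a brain-enriched COS box member, had 2, 2 and 2 reads in sh-NC and 7, 9 and 10 in sh-TRAF2, too few for a precise fold.

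TRIM59, a membrane-anchored ligase, was listed at 0 in 4 samples and had 1 and 2 reads in sh-TRAF2 replicates 2 and 3. IFT80, a subunit of cilia transport that lies beside it, was also near 0, at 0 to 0.0195 FPKM, and the readthrough gene TRIM59-IFT80, named in RefSeq for both, measured 0.04997 to 0.106 FPKM. How reads shared by these 3 annotations were counted is not given in the sources used here, so the values of TRIM59 cannot be read as its level. TRIM34 is likewise spanned by the readthrough TRIM6-TRIM34 in the GENCODE annotation.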
